A study of Mus musculus with 8 samples.

Results

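Control kidneys taken in the dark phase were compared with control kidneys taken in the light phase, and the mRNAs other than the 16 core clock genes of the study are described here by pathway and function. The members were the libraries of 2 Ctrl mice at ZT16 and 2 Ctrl mice at ZT4, 4 of the 8 samples of the series. They held 41259 of the 81391 nuclei that had at least 500 genes, at least 800 unique molecular identifiers (UMIs) and at most 2% mitochondrial UMIs. Zeitgeber time (ZT) counts hours from lights on in a cycle of 12 h light and 12 h dark, so ZT4 falls in the resting phase of a mouse and ZT16 in its active phase.

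All mice were male C57BL/6J fed ad libitum. Ctrl mice were Bmal1lox/lox littermates of the cKOt mice, which also carried the transgenes Pax8-rtTA and LC-1, so that doxycycline switched on Cre in Pax8-expressing cells, which in the kidney are the tubular epithelium. Mice of both genotypes received 2 mg/ml doxycycline and 20 mg/ml sucrose in the drinking water for 2 weeks from 8 weeks of age, so the controls shared the floxed alleles and the antibiotic. Kidneys were collected at 14 weeks of age after a stay in boxes with shifted light cycles, which let all mice be killed at the same hour of the day. The 4 cKOt libraries, 2 per time point, are shown here where they bear on the change in Ctrl kidneys, and they also enter the fits, in which all 4 groups share 1 estimate of the spread.

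The kidney filters more at some hours of the day than at others, and its tubules reabsorb sodium, water, glucose, amino acids and filtered protein under the joint control of a local clock, circulating hormones such as glucocorticoids, body temperature, and the timing of food. The transcription factor pair CLOCK and BMAL1 binds E-box sequences in promoters of its targets. Chaperones of the endoplasmic reticulum fold secreted and membrane proteins, and the transcription factors ATF6 and XBP1 induce them through endoplasmic reticulum stress elements, whereas the cytosolic chaperones answer to HSF1, which also follows body temperature.

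The promoter windows below carry an E-box or an endoplasmic reticulum stress element, and are shown so that the day-night values can be read beside them. They come from RefSeq on build GRCm38.p6, run from 250 bases before to 30 bases after the annotated start, and are written 5′ to 3′ on the strand of the gene. Capitals mark the E-box CACGTG in the first 3 windows and the endoplasmic reticulum stress element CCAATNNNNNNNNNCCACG, on either strand, in the last 3. The Rhobtb1 window, at chr10:69212407-69212686 on the plus strand, is the second of 3 listed for the gene. The others lie at chrX:36328159-36328438 on the plus strand for Lonrf3, at chr2:24975783-24976062 on the plus strand for Pnpla7, at chr2:34771840-34772119 on the plus strand for Hspa5, at chr10:86705415-86705694 on the minus strand for Hsp90b1 and at chr12:17266339-17266618 on the plus strand for Pdia6.
Rhobtb1: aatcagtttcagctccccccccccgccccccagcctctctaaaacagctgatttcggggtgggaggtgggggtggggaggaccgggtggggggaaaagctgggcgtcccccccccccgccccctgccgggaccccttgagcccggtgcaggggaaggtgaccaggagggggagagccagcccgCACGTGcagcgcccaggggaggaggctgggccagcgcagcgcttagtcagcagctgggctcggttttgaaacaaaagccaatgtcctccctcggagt
Lonrf3: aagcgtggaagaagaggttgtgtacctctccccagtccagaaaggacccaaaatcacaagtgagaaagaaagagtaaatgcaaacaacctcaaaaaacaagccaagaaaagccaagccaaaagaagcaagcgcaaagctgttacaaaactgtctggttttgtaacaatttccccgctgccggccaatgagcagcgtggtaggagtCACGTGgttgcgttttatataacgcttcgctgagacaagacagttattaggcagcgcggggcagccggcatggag
Pnpla7: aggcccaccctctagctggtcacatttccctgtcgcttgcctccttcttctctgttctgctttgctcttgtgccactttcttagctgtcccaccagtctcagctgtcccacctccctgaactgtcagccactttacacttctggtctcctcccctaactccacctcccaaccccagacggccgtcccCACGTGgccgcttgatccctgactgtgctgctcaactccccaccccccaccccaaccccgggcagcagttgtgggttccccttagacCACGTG
Hspa5: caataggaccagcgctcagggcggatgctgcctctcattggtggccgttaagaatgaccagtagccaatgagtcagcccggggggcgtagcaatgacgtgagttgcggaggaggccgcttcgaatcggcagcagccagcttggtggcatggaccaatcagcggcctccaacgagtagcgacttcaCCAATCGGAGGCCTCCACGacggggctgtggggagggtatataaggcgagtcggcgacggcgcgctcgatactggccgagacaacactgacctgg
Hsp90b1: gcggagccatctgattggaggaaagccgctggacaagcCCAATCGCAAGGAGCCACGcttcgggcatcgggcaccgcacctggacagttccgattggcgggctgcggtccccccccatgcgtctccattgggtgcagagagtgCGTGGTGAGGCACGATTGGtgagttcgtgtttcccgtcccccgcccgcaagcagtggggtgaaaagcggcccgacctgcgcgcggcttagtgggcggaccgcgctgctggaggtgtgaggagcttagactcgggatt
Pdia6: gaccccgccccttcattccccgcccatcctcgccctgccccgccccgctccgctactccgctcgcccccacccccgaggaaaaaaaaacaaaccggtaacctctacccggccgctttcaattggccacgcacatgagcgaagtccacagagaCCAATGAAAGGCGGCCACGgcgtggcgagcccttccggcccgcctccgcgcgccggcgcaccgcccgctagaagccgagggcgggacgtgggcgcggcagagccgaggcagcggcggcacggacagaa

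Of the 17 mRNAs called below, 15 had a window, and 3 of these, Rhobtb1, Lonrf3 and Pnpla7, held an E-box in 1 of their windows of 300 bases, 3 of 20 windows in all, against 7.15% of all 32851 windows. The E-box was also in windows of 4 of 15 cholesterol, 2 of 21 endoplasmic reticulum and 2 of 17 heat shock genes. Other motifs were searched too. In the 15 called genes with a window, the E-box variant CACGTT, the D-box TTANGTAA, ACANNNTGT and TCACNCCAC were in 0. They were in 4.68%, 2.32%, 6.85% and 1.24% of all windows. The run AGGTCA was in 1 of the 15, Acmsd, against 16.3% of all windows. The stress and heat shock elements given next were in 0 of the 15. A gene can have more than 1 window, so counts of genes and shares of windows are not on the same footing. Rhobtb1 and Lonrf3 were higher at ZT16 and Pnpla7 was higher at ZT4. The stress element was in 39 windows in all, 0.119%, and in those of 7 of the 21 endoplasmic reticulum genes with a window, namely Calr, Canx, Creld2, Dnajc3, Hsp90b1, Hspa5 and Pdia6. The heat shock element, an array of the units GAA and TTC, was in the windows of 4 of 17 heat shock genes, against 0.603% of all windows. Both strands were searched, and a match is a run of letters that was not tested as a binding site.

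The 4 Ctrl libraries held 9896 to 10739 nuclei, with 36548873 to 54500820 UMIs in all and a median of 3003.5 to 4063 UMIs per nucleus. Pairs of libraries shared 18 to 42 cell barcodes. Levels are given as CPM, the counts of a gene per 1000000 mRNA UMIs of a library. The RNA of the targeted gene Arntl (Bmal1) stood at 38.2 and 33.1 CPM in Ctrl at ZT4, at 154 and 159 CPM in Ctrl at ZT16, at 295 and 201 CPM in cKOt at ZT4, and at 296 and 267 CPM in cKOt at ZT16. The 3′ tags counted may lie outside the deleted exon, so these levels do not check the deletion, and only the Ctrl libraries separated by time.

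Beyond the clock genes, 17 mRNAs differed between ZT16 and ZT4 over all Ctrl nuclei, 7 higher at ZT16 and 10 higher at ZT4. With the clock genes, 0.068% of all mRNAs tested were called higher at ZT16 and 0.0804% higher at ZT4. Those higher at ZT16 were Rhobtb1, Lonrf3, Lingo4, Faah, Acmsd, Scd2 and Slc16a6, among them genes of protein turnover, tryptophan, endocannabinoid and fatty acid metabolism and monocarboxylate transport. Those higher at ZT4 were Alk, Slc6a19, Cubn, Kcnc2, Pnpla7, Ccdc148, Vmn1r18 and the dynein heavy chain genes Dnah5, Dnah7b and Dnah7c, among them a carrier and a receptor of the proximal tubule. With the 7 clock genes called, they made 24 of 16165 mRNAs tested, or 0.148%, by edgeR's quasi-likelihood test at an adjusted p limit of 0.05. DESeq2 called 234 mRNAs, or 1.45%, which included all 24. The sums over a kidney cannot tell fewer nuclei of a type from less RNA per nucleus. With 2 mice per group, a p-value rests on a spread estimated over the mice of all 4 groups, cKOt included, and drawn together across mRNAs. Rhobtb1 and Alk passed without any 1 of the Ctrl libraries, whereas 3 and 2 of the 17 passed without Ctrl ZT4 replicate 1 and 2, and 6 and 4 without Ctrl ZT16 replicate 1 and 2, with all 17 keeping their direction. A fit of the 4 Ctrl libraries alone called 11 of the 17, all but Dnah7b, Cubn, Pnpla7, Slc16a6, Slc6a19 and Dnah5. With the replicate number added to the model as a block (the replicate block), 7 of the 17 passed. Those lost were Dnah7b, Cubn, Pnpla7, Ccdc148, Vmn1r18, Kcnc2, Slc16a6, Slc6a19, Dnah5 and Scd2.

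**Figure D1:**
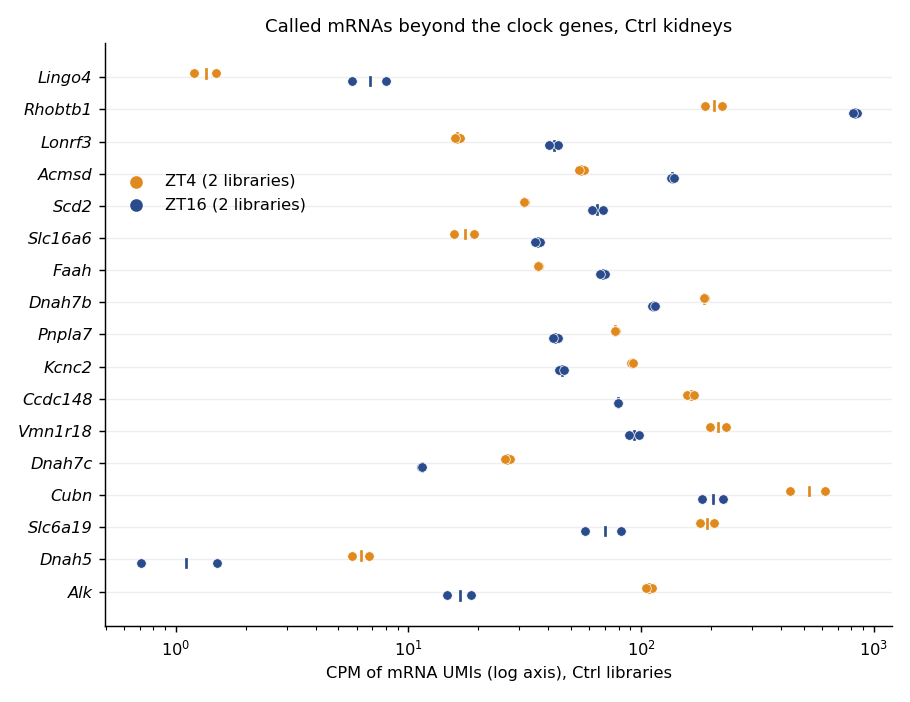
Level of the 17 called mRNAs in each Ctrl library, in CPM of mRNA UMIs on a log axis, with ZT4 in orange, ZT16 in blue and ticks at the group means. In each gene the 2 libraries of one time lie apart from the 2 of the other, as for Alk with 111 and 105 against 14.6 and 18.6 CPM. The genes were chosen by their call in these same libraries.

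Rhobtb1 encodes an adaptor of cullin 3 ubiquitin ligases that is known for a role in vascular tone. Its level was 189 and 223 CPM at ZT4 against 845 and 815 CPM at ZT16, a log2 fold change of 2.01 ± 0.15 (SE, edgeR adjusted p = 0.00183). Both dark phase libraries stood well above both light phase libraries, 4.03-fold in the fit. Lonrf3, a RING finger protein with a Lon domain, had 16.7 and 15.8 CPM at ZT4 against 43.9 and 40.4 CPM at ZT16, a log2 change of 1.38 ± 0.13 (edgeR adjusted p = 0.00663). Lingo4, which encodes a leucine-rich repeat membrane protein, was counted at 1.2 and 1.49 CPM at ZT4 against 7.98 and 5.75 CPM at ZT16, 2.34 ± 0.23 on the log2 scale (edgeR adjusted p = 0.00675). It is a low gene, with 37 to 376 UMIs per Ctrl library. Reads running on from a neighbouring gene on the same strand cannot be told apart from its own.

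The metabolic genes that rose moved by a narrower range. Faah, the hydrolase of the endocannabinoid anandamide, had 36.3 and 36.1 CPM at ZT4 against 70.2 and 66.6 CPM at ZT16, a log2 change of 0.92 ± 0.11 (edgeR adjusted p = 0.0180). Acmsd, a decarboxylase that diverts tryptophan breakdown away from NAD synthesis, had 56.8 and 53.9 CPM against 135 and 138 CPM, 1.3 ± 0.16 (edgeR adjusted p = 0.0285). Replicates of both genes lay close, but the genes were chosen by their call in these same libraries, and each call needed every Ctrl library. Scd2, a stearoyl-CoA desaturase, had 31.7 and 31.3 CPM against 61.4 and 68.6 CPM, 1.04 ± 0.15 (edgeR adjusted p = 0.0458). Slc16a6, a monocarboxylate carrier, had 15.7 and 19.1 CPM against 36.8 and 35.1 CPM, also 1.04 ± 0.15 (edgeR adjusted p = 0.0476). The last gene overlaps Amz2 and Arsg on the other strand, and the sources used here do not say whether the counting used strand.

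Among the genes higher at ZT4, Alk encodes a receptor tyrosine kinase best known from neurons. Its level was 111 and 105 CPM at ZT4 but 14.6 and 18.6 CPM at ZT16, a log2 change of -2.70 ± 0.16 (edgeR adjusted p = 0.000969), so that the light phase level was 6.51 times that of the dark phase. Slc6a19 encodes B0AT1, the main apical carrier of neutral amino acids in the proximal tubule, and Cubn encodes cubilin, a receptor for filtered protein. Slc6a19 fell from 179 and 206 CPM to 82.0 and 57.5 CPM (-1.46 ± 0.19, edgeR adjusted p = 0.0381). Cubn fell from 436 and 616 CPM to 225 and 183 CPM (-1.37 ± 0.18, edgeR adjusted p = 0.0381). The 2 light phase levels of Cubn were spread. The 12 proximal tubule markers summed to 8519 and 8477 CPM at ZT4 and to 6634 and 6082 CPM at ZT16, and edgeR called 1 of them, Slc6a19. Nuclei named by proximal tubule markers made up 28.3% and 23.7% of nuclei at ZT4 and 23.4% and 21.9% at ZT16. These shares leave out the unnamed cluster 7, which scored highest for the proximal tubule list. That cluster made up 3.59% and 4.12% at ZT4 and 4.22% and 3.60% at ZT16. The part of this makeup in the fall of Slc6a19 was not tested, and values of Cubn within the nuclei named by proximal tubule markers are given further on.

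Pnpla7, a lysophospholipase, had 77.8 and 77.4 CPM at ZT4 against 43.8 and 41.9 CPM at ZT16 (-0.86 ± 0.12, edgeR adjusted p = 0.0431). Kcnc2, a voltage-gated potassium channel, had 90.7 and 92.5 CPM against 44.5 and 46.5 CPM (-1.01 ± 0.13, edgeR adjusted p = 0.0381). Replicates of these genes lay close together, but both genes were likewise chosen by their call in these libraries, and each call needed every Ctrl library. The axonemal dynein heavy chains are motors of motile cilia. Dnah5 fell from 5.72 and 6.78 CPM to 1.51 and 0.709 CPM (-2.47 ± 0.32, edgeR adjusted p = 0.0381), and Dnah7c from 27.3 and 26.1 CPM to 11.4 CPM in both libraries (-1.23 ± 0.14, edgeR adjusted p = 0.0180). Dnah7b fell from 188 and 186 CPM to 111 and 115 CPM (-0.72 ± 0.10, edgeR adjusted p = 0.0476). Dnah7b and Dnah7c are near-identical neighbours, so reads may have been split between them, and Dnah5 had 26 to 282 UMIs per Ctrl library. Ccdc148, a coiled-coil protein gene, fell from 157 and 169 CPM to 79.9 and 79.3 CPM (-1.04 ± 0.14, edgeR adjusted p = 0.0381). Vmn1r18, a gene of the vomeronasal receptor family, fell from 197 and 232 CPM to 97.5 and 88.3 CPM (-1.21 ± 0.16, edgeR adjusted p = 0.0426). It lies in a receptor cluster and opposite 4930533I22Rik, so its reads are less certain.

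Next, the change in Ctrl was set beside that in cKOt kidneys, which asks whether a day-night step depends on the tubular clock. Rhobtb1 alone beyond the clock genes passed edgeR's test of the difference. In cKOt it stood at 1358 and 1242 CPM at ZT4 against 1512 and 1231 CPM at ZT16, above every Ctrl library and with overlapping times. The Ctrl change exceeded the cKOt change by 1.93 on the log2 scale (edgeR adjusted p = 0.0437), a call that was lost with the replicate block, under which 0 mRNAs passed. DESeq2 called the difference for Rhobtb1, Lonrf3, Lingo4, Faah, Alk and Cubn. Lonrf3, Lingo4, Faah and Cubn had log2 changes of 0.23, -0.04, 0.05 and -0.10 in cKOt, and Alk one of -1.29. Across the cKOt libraries Lonrf3 ran from 48.3 to 63.4 CPM and Lingo4 from 9.76 to 11.1 CPM, above every Ctrl library. Faah ran from 61.3 to 66.2 CPM in cKOt, above its Ctrl ZT4 libraries and just below its Ctrl ZT16 libraries. Cubn ran from 327 to 384 CPM in cKOt, between its Ctrl levels of ZT16 and ZT4. Acmsd had 82.7 and 62.4 CPM at ZT4 against 190 and 155 CPM at ZT16 in cKOt, a log2 change of 1.25 beside 1.3 in Ctrl. Pnpla7 likewise had log2 changes of -0.84 in cKOt and -0.86 in Ctrl.

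**Figure D2:**
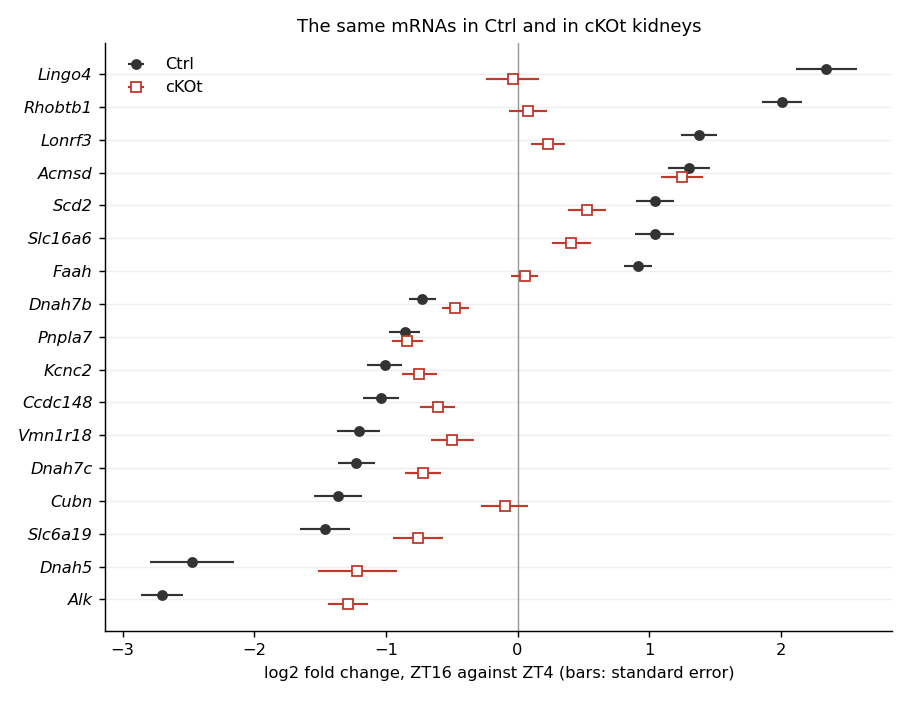
Log2 fold change of ZT16 over ZT4 with its standard error for the 17 mRNAs, in Ctrl as filled circles and in cKOt as open red squares. Rhobtb1, Lonrf3, Lingo4, Faah and Cubn lie near 0 in cKOt (0.08, 0.23, -0.04, 0.05 and -0.10), whereas Acmsd and Pnpla7 lie close to their Ctrl values.

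Of the 17 mRNAs, 16 had a change of the same sign in cKOt, where 63% of all mRNAs tested in both genotypes did. All 17 had a smaller absolute change in cKOt, but they had been chosen for their change in Ctrl. In cKOt edgeR called 0 of 16069 mRNAs, with 1335 at an unadjusted p under 0.05, and DESeq2 called 168 (1.05%), of which 8 were among the 17. The difference between genotypes was called by edgeR for 3 of 16351 mRNAs (0.0183%), 2 of them clock genes, and by DESeq2 for 48 (0.294%).

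Lists of genes of kidney function and metabolism, chosen with earlier results of these data known, were then counted over all nuclei. The chaperone lists had the highest medians: 22 of 23 tested members of the endoplasmic reticulum list and 21 of 22 of the heat shock list were above 0, with medians of 0.53 and 0.64 on the log2 scale, while the median of all mRNAs was -0.002. Cholesterol synthesis and uptake had 22 of 24 members above 0 and a median of 0.36. By edgeR no member of these 3 lists passed over all nuclei. An unadjusted edgeR p under 0.05 was seen for 12 of 23, 3 of 22 and 9 of 24 members, against 1601 of all 16165 mRNAs. DESeq2 called 8, 1 and 2 members, all higher at ZT16, where it called 0.643% of all mRNAs. At the other end, phase II conjugation and cytochrome P450 genes had 9 of 26 and 5 of 26 members above 0 and medians of -0.26 and -0.15. Many of these genes are proximal tubule genes, and the 12 proximal tubule markers had a median of -0.33, whose part in the lists' medians was not tested. No phase II gene was called by either tool. By edgeR 7 of the 26 had an unadjusted p under 0.05, against 1601 of all 16165 mRNAs. DESeq2 called the members Cyp2e1 and Fmo2 of the P450 list higher at ZT4, where it called 0.804% of all mRNAs.

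**Figure D3:**
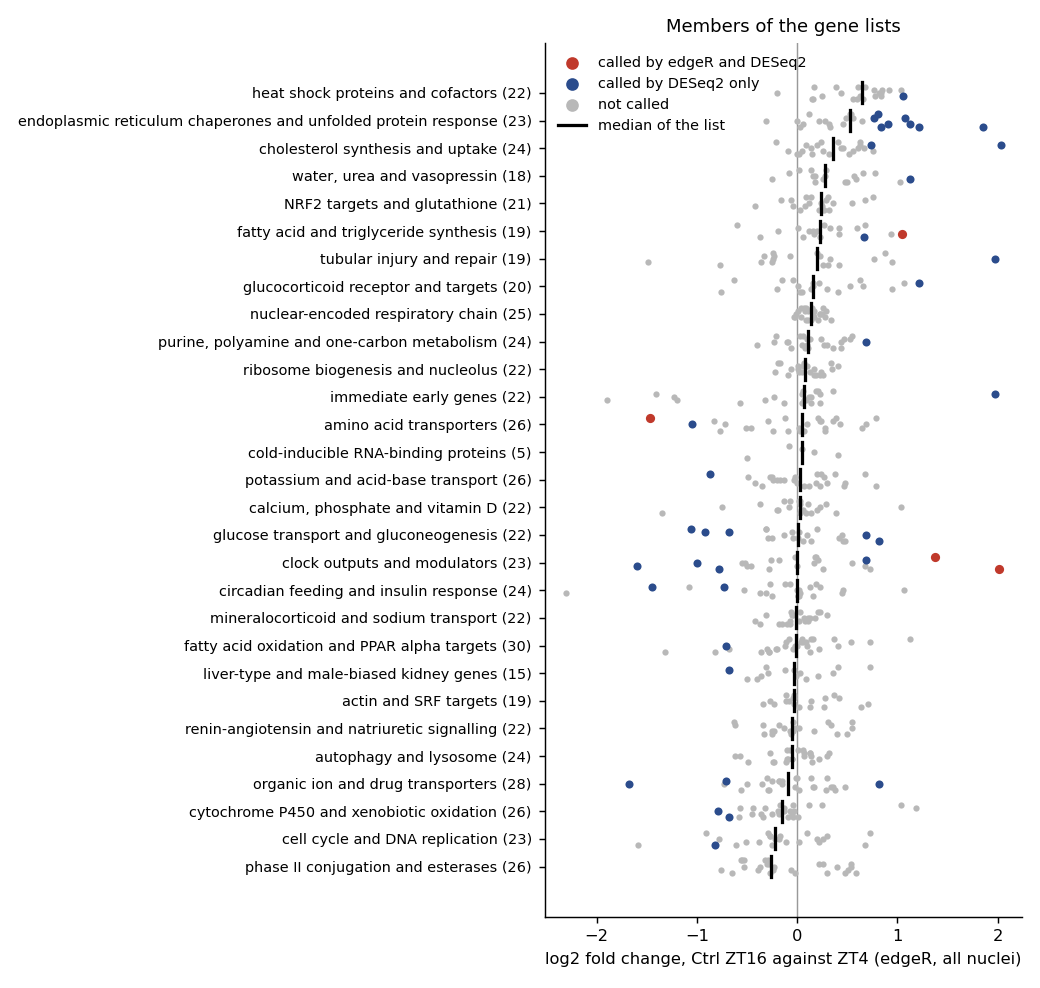
Log2 fold change of ZT16 over ZT4 in Ctrl for each tested member of 29 gene lists, with the number tested in parentheses and a black bar at the list's median. Members called by edgeR and DESeq2 are red, those called by DESeq2 only are blue, and the heat shock and endoplasmic reticulum lists have the highest medians (0.64 and 0.53).

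Of 22 genes of glucose handling, DESeq2 called 2 higher at ZT16 and 3 higher at ZT4, where it called 0.643% and 0.804% of all mRNAs. By edgeR 0 were called and 7 had an unadjusted p under 0.05, against 1601 of all 16165 mRNAs. Pck1, the gluconeogenic enzyme phosphoenolpyruvate carboxykinase, had 311 and 230 CPM at ZT4 against 432 and 521 CPM at ZT16, and Slc2a1, the glucose carrier GLUT1, had 20.1 and 21.3 against 36.5 and 30.04 CPM. The gluconeogenic enzyme Fbp1 went the other way, with 341 and 309 CPM at ZT4 against 227 and 178 CPM at ZT16, as did the basolateral glucose carrier Slc2a2 with 117 and 162 against 82.6 and 65.3 CPM. The edgeR adjusted p values of these 4 genes were 0.210, 0.227, 0.135 and 0.135. The urate carriers also differed in direction by DESeq2. Slc2a9 had 66.2 and 48.2 CPM at ZT4 against 30.6 and 24.3 CPM at ZT16, and Slc22a12 had 113 and 81.7 against 175 and 168 CPM. The carnitine carrier Slc22a5 had 231 and 271 CPM at ZT4 against 158 and 150 CPM at ZT16. These are sums over all nuclei, in which the 12 proximal tubule markers had a median of -0.33. The part of that shift in the values of these genes was not tested.

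Hormone-linked lists held few calls. Of 20 glucocorticoid receptor targets, DESeq2, which called 0.643% of all mRNAs higher at ZT16, called Tsc22d3, which encodes the glucocorticoid-induced leucine zipper, at 69.8 and 37.4 CPM at ZT4 against 106 and 142 CPM at ZT16 (edgeR adjusted p = 0.241). None of the 22 genes of mineralocorticoid action and sodium transport was called by either tool or had an unadjusted edgeR p under 0.05, and their log2 changes ran from -0.42 to 0.30. Among 18 water and urea genes, DESeq2 likewise called 1, Aqp2, the vasopressin-regulated water channel, at 73.5 and 77.9 CPM against 104 and 227 CPM. The high value came from Ctrl ZT16 replicate 2. Nuclei named by connecting tubule and collecting duct markers were 7.67% there, against 5.16% in the other ZT16 library and 5.51% and 4.54% at ZT4. The 6 thin limb markers include Slc14a2, also a leading gene of a cluster named by collecting duct markers. They summed to 1400.1 CPM in that library, against 334 CPM in the other ZT16 library and 684.5 and 254.6 CPM at ZT4. The part of these shares and of medullary tissue in the Aqp2 value was not tested.

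In the lists of cholesterol and of fatty acid synthesis, the members called by DESeq2 over all nuclei were higher at ZT16. The sterol dehydrogenase Nsdhl had 28.0 and 25.3 CPM at ZT4 against 46.8 and 41.8 CPM at ZT16. The sterol regulator Srebf1, in the fatty acid list with Scd2, had 15.5 and 14.7 CPM at ZT4 against 25.4 and 22.4 CPM at ZT16. For Nsdhl and Srebf1 the edgeR adjusted p values were 0.234 and 0.146.

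The nuclei were next grouped into classes, and each class was tested on its own sums. Class names follow marker lists and are used as PT-like (proximal tubule), TAL-like (thick ascending limb), DCT-like (distal convoluted tubule), Vasc-like (endothelium), IC-like (intercalated cells) and Stroma-like. TAL-like nuclei, 5370 in Ctrl, gave 142 calls among 12766 mRNAs tested, or 1.11%, and DCT-like nuclei, 2614 in Ctrl, gave 136 of 11829, or 1.15%. Vasc-like nuclei gave 80 (0.624%), PT-like nuclei 65 (0.476%) and Stroma-like nuclei 26 (0.206%). The order of the classes depended on the tool. DESeq2 called 249 mRNAs in PT-like, 162 in TAL-like, 99 in DCT-like, 98 in Vasc-like and 40 in Stroma-like nuclei. Of the 3 DCT-like clusters, 1 held 2119 of the 5238 DCT-like nuclei of all 8 libraries. Its leading genes had 2 markers of the DCT list, Trpv5 and Slc8a1, but not Slc12a3. They also had 2 of the connecting tubule and collecting duct list, Scnn1g and Scnn1b. The part of this cluster in the DCT-like values below was not tested. Within TAL-like nuclei 74 mRNAs were higher at ZT16 and 68 at ZT4, within DCT-like nuclei 71 and 65, and within Vasc-like nuclei 24 and 56. Without 1 Ctrl library the calls fell to between 59 and 97 in TAL-like, 53 and 62 in DCT-like, 8 and 21 in Vasc-like and 9 and 15 in PT-like nuclei, and of 127 class values called for named genes 19 passed without each library and 127 kept their sign.

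In TAL-like nuclei, chaperones of the endoplasmic reticulum rose together in the dark phase. Of 22 list members tested, 12 rose and none fell, where 0.58% of all mRNAs in these nuclei were called higher at ZT16. The list's median was 0.86 on the log2 scale against 0.01 for all mRNAs. The list was chosen with earlier results of these data known, so its count is a description. Hspa5, the central chaperone BiP, had 39.1 and 61.6 CPM of the class's mRNA UMIs at ZT4 and 204 and 171 CPM at ZT16, a log2 change of 1.87 ± 0.22 (edgeR adjusted p = 0.000352). Hsp90b1, the chaperone GRP94, had 77.5 and 91.5 against 237 and 212 CPM (1.40 ± 0.16, edgeR adjusted p = 0.000303). Pdia6, a disulfide isomerase, had 30.1 and 25.9 against 77.2 and 68.9 CPM (1.40 ± 0.16, edgeR adjusted p = 0.000208). These are the 3 genes whose windows with stress elements are printed above, and in each the dark phase libraries lay far above the light phase libraries. The 12 that rose also held Sdf2l1, Xbp1, Hyou1, Pdia3 and Dnajb11, which were not among the 7 genes with an element in a window. Whether the element bears on the rise was not tested. The cochaperones Sdf2l1 and Creld2 rose by 3.003 ± 0.55 and 2.03 ± 0.35 on the log2 scale from low levels, Sdf2l1 from 0.359 and 1.41 to 7.04 and 9.78 CPM. Calr and Canx, the lectin chaperones, rose by 1.06 ± 0.16 and 0.57 ± 0.13. Xbp1, the transcription factor of the response, had 33.0 and 40.7 CPM at ZT4 against 76.3 and 67.8 CPM at ZT16 (0.95 ± 0.18, edgeR adjusted p = 0.0156). The count of 12 was 6 without Ctrl ZT4 replicate 1 and 9 without each other Ctrl library, and Hspa5, Hsp90b1, Pdia6, Calr and Hyou1 passed in every such fit.

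**Figure D4:**
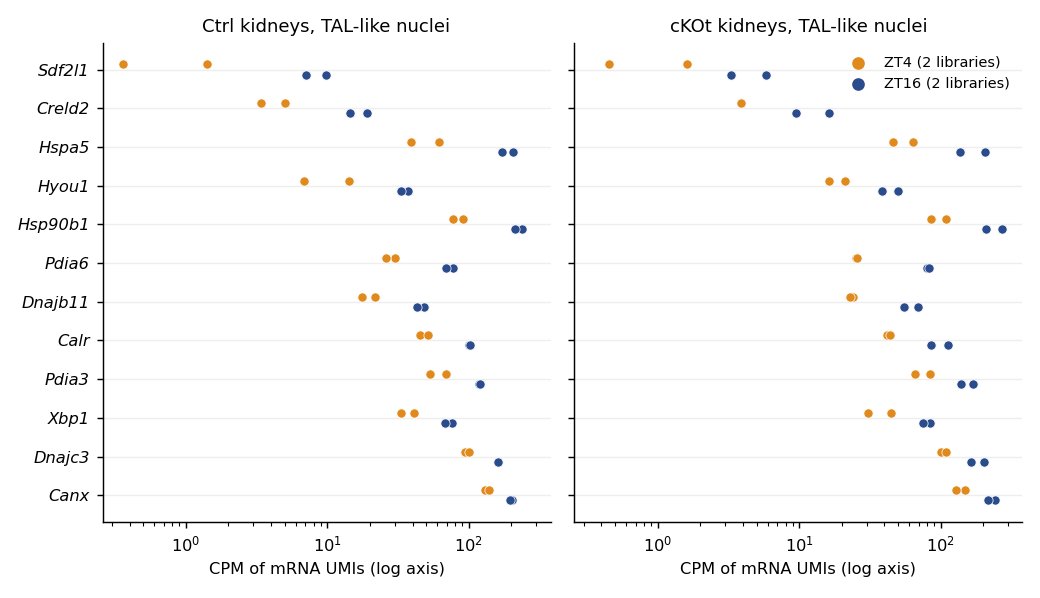
Level of the 12 called endoplasmic reticulum genes in TAL-like nuclei of each library, in CPM on a log axis, with ZT4 in orange and ZT16 in blue, for Ctrl at the left and cKOt at the right. In every gene both ZT16 libraries lie above both ZT4 libraries in both genotypes, as for Hspa5 with 63.2 and 45.8 against 207 and 138 CPM in cKOt. The genes were chosen by their call in the Ctrl libraries shown.

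The chaperone genes rose in cKOt kidneys as well. In cKOt TAL-like nuclei 14 of 22 members rose, where 0.525% of all mRNAs were called in either direction, and edgeR called the difference between genotypes for none of the list and for 0.0539% of all mRNAs. The median of cKOt was 1.08. Hspa5 changed by 1.68 and Pdia6 by 1.69 on the log2 scale in cKOt. In DCT-like nuclei 5 of 21 members rose in Ctrl by edgeR, namely Xbp1, Hspa5, Hsp90b1, Pdia3 and Calr, against 0.6% of all mRNAs higher at ZT16, while DESeq2 called 3. There 8 of 21 rose in cKOt, against 0.387% of all mRNAs in cKOt, while 0.0574% of all mRNAs and no list member passed for the difference. The Ctrl count there was 1 without Ctrl ZT4 replicate 1, Ctrl ZT4 replicate 2 or Ctrl ZT16 replicate 1 and 2 without Ctrl ZT16 replicate 2. In Vasc-like nuclei Hspa5 and Hsp90b1 rose, of 23 tested, against 0.187% of all mRNAs higher at ZT16, and each passed in 1 of the 4 fits without 1 Ctrl library. No member passed edgeR in PT-like nuclei, where 21 of 22 were above 0 with a median of 0.50 and DESeq2 called 2, or in Stroma-like nuclei, where 6 of 21 rose in cKOt against 0.232% of all mRNAs.

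The heat shock list had medians above 0 in Ctrl and mostly below 0 in cKOt. In Ctrl its median was 0.79 in PT-like, 0.71 in Vasc-like, 0.66 in Stroma-like, 0.61 in DCT-like, 0.59 in IC-like and 0.41 in TAL-like nuclei. Without Ctrl ZT16 replicate 2 the median fell to 0.33 in PT-like and 0.21 in Vasc-like nuclei. In cKOt the medians of the same classes were -0.16, -0.14, -0.29, 0.13, -0.05 and -0.06. The members that passed in these Ctrl classes were Hspa8, the constitutive cytosolic HSP70, in TAL-like nuclei (1 of 21 tested, against 0.58% of all mRNAs higher at ZT16), Hspa8 and Hsp90ab1 in DCT-like nuclei (2 of 21, against 0.6%) and Hspa8 and Hspb1 in Vasc-like nuclei (2 of 22, against 0.187%). Hspa8 in Vasc-like nuclei had 122 and 140 CPM at ZT4 against 284 and 304 CPM at ZT16 in Ctrl (edgeR adjusted p = 0.0319), and 218 and 124 against 358 and 273 CPM in cKOt. None of these calls held without each of the Ctrl libraries. The difference between genotypes passed for 0 members of the list in the 18 classes tested, so the medians are a description.

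**Figure D5:**
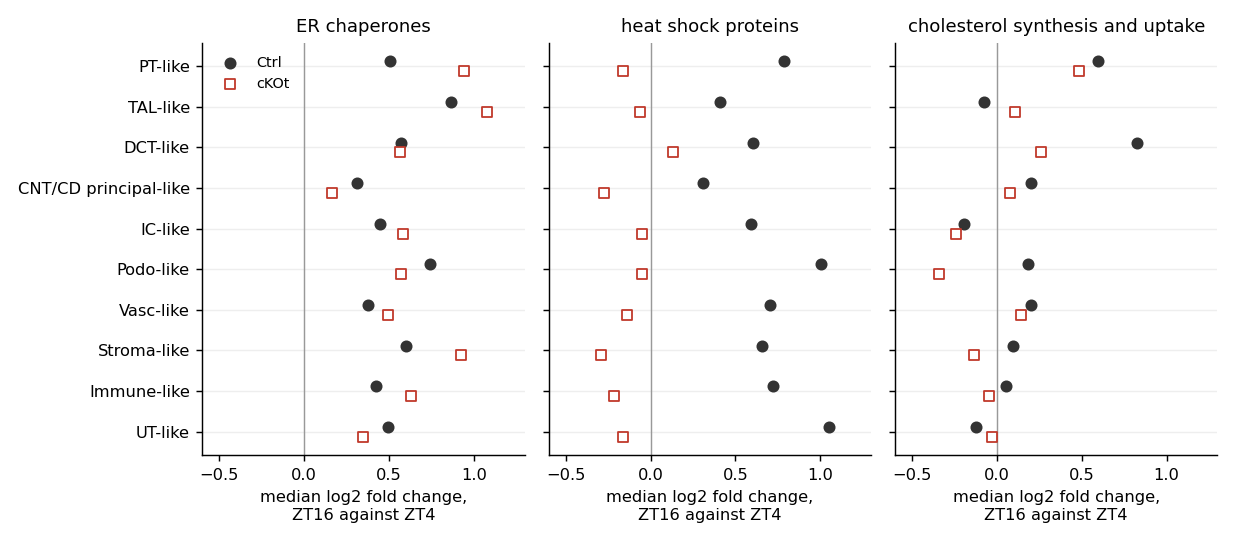
Median log2 fold change of ZT16 over ZT4 of 3 gene lists in each of 10 nuclear classes, for Ctrl and cKOt. The endoplasmic reticulum list lies above 0 in both genotypes in every class shown, while the heat shock list lies above 0 in Ctrl and, except for 0.13 in DCT-like nuclei, below 0 in cKOt.

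In the DCT-like nuclei some lipid genes were called higher at ZT16. Of 23 cholesterol genes 4 rose and none fell, where 0.6% of mRNAs were called higher at ZT16, and the median was 0.83. Among them were the synthesis enzymes Hmgcs1 and Msmo1. Msmo1 had 15.0 and 25.3 CPM at ZT4 against 48.3 and 52.5 CPM at ZT16 (1.31 ± 0.25, edgeR adjusted p = 0.0110). The count of 4 was 0 without Ctrl ZT4 replicate 1 or Ctrl ZT16 replicate 1, 3 without Ctrl ZT4 replicate 2 and 1 without Ctrl ZT16 replicate 2, and DESeq2 called 2. Of 17 genes of fatty acid and triglyceride synthesis, 2 rose. Scd2 rose there from 85.8 and 93.9 to 228 and 188 CPM (1.21 ± 0.15, edgeR adjusted p = 0.000254), and did so without each library. The fatty acid elongase Elovl6 rose from 75.8 and 73.0 to 114 and 157 CPM, a call lost in 3 of the 4 fits that left out 1 Ctrl library. In PT-like nuclei the sterol sensor Insig1 rose, where 0.212% of all mRNAs were called higher at ZT16, from 6.75 and 6.96 to 17.5 and 17.6 CPM (1.35 ± 0.21, edgeR adjusted p = 0.0381), and did not pass once any 1 Ctrl library was left out. In TAL-like nuclei the list's median was -0.08 and the cholesterol exporter Abca1 was called, but not once any 1 Ctrl library was left out.

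Within PT-like nuclei several of the genes called over all nuclei passed too, on sums that do not move with the share of these nuclei in a library. These sums are part of the same counts of the same mice, so they are not a second sample. Of the PT-like clusters, 1 held 565 and 140 nuclei at ZT4 and 290 and 466 nuclei at ZT16 in Ctrl, and the part of such shifts within the class was not tested. The unnamed cluster 7 is not part of the class. Its mean Ctrl level of Cubn was 911 CPM, against 725 CPM in PT-like nuclei, and Cubn was not called there. Cubn fell from 849 and 1297 to 409 and 344 CPM (-1.51 ± 0.24, edgeR adjusted p = 0.0381). Rhobtb1 rose from 370.3 and 492 to 2071 and 2207 CPM (2.31 ± 0.20, edgeR adjusted p = 0.00314), and Acmsd from 125 and 135 to 336 and 373 CPM (1.45 ± 0.16, edgeR adjusted p = 0.0124). Ddc, which makes dopamine in the proximal tubule, rose from 68.8 and 85.8 to 195 and 176 CPM (1.26 ± 0.16, edgeR adjusted p = 0.0165). In cKOt it stood at 319 CPM in both ZT4 libraries and at 309.8 and 335 CPM at ZT16. Tsc22d3 rose from 68.1 and 46.0 to 167 and 174 CPM (1.58 ± 0.25, edgeR adjusted p = 0.0406). Kcnma1, a calcium-activated potassium channel, fell from 86.3 and 111 to 35.1 and 25.4 CPM (-1.70 ± 0.20, edgeR adjusted p = 0.0139). Of these genes only Rhobtb1 passed without each Ctrl library in PT-like nuclei, with 0.0336 as its highest edgeR adjusted p. Slc6a19, Alk and Vmn1r18 were among the genes that define PT-like clusters and are not given within the class.

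Free RNA can carry abundant proximal tubule transcripts into other nuclei. The mean Ctrl level in Vasc-like nuclei was 11.6% of that in PT-like nuclei for Rhobtb1 and 11.5% for Cubn, and the part of such RNA in class values of these genes was not tested. Rhobtb1 averaged 45.6 CPM in TAL-like and 44.8 CPM in DCT-like nuclei, below its 149 CPM in Vasc-like nuclei. It rose in TAL-like nuclei from 21.2 and 21.1 to 68.6 and 71.5 CPM (1.73 ± 0.19, edgeR adjusted p = 0.000170) and in DCT-like nuclei from 14.6 and 19.1 to 63.0 and 82.6 CPM (2.09 ± 0.21, edgeR adjusted p = 2.32e-05). Lonrf3 rose in TAL-like nuclei from 6.82 and 5.62 to 37.3 and 33.8 CPM (2.54 ± 0.23, edgeR adjusted p = 1.69e-05). These 3 calls held without each library. In Stroma-like nuclei, which lie outside the cells that Pax8-rtTA targets, Lonrf3 rose from 14.2 and 13.5 to 44.0 and 39.1 CPM (1.59 ± 0.23, edgeR adjusted p = 0.00595), a call lost without Ctrl ZT4 replicate 2 or Ctrl ZT16 replicate 1, with 0.142 as its highest adjusted p. Its log2 change in cKOt was 0.63 in TAL-like nuclei and 1.24 in Stroma-like nuclei.

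Other genes of transport and signalling were called in one or more classes. In DCT-like nuclei Kl, the FGF23 coreceptor Klotho, rose from 1019 and 1070.5 to 1883 and 1900.1 CPM (0.86 ± 0.14, edgeR adjusted p = 0.00385), and by 0.81 on the log2 scale in cKOt. Without Ctrl ZT4 replicate 1 its edgeR adjusted p was 0.0738. Pth1r, the parathyroid hormone receptor, rose there from 112 and 107 to 196 and 165 CPM (0.72 ± 0.16, edgeR adjusted p = 0.0349). Both act in phosphate and calcium handling, but Pth1r did not pass once any 1 Ctrl library was left out. Bhlhe40, a repressor of E-box targets, rose from 13.3 and 15.8 to 58.2 and 50.6 CPM in DCT-like nuclei (1.90 ± 0.23, edgeR adjusted p = 0.000126) and passed without each library. The metallothionein Mt1 fell in TAL-like nuclei from 72.5 and 89.7 to 45.4 and 44.0 CPM (-0.87 ± 0.16, edgeR adjusted p = 0.0142), while the actins Actb and Actg1, targets of serum response factor, rose there by 0.93 and 0.96. Without 1 Ctrl library the highest edgeR adjusted p values of Mt1, Actb and Actg1 in TAL-like nuclei were 0.158, 0.132 and 0.0916.

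The calls higher at ZT4 in Vasc-like nuclei included Cubn, Slc6a19, Alk and Vmn1r18, whose mean Ctrl levels there were 11.5%, 7.76%, 8.73% and 4.21% of those in PT-like nuclei, and the part of free RNA in the count of calls was not tested. The endothelin receptor Ednrb fell from 505 and 498 to 312 and 341 CPM (-0.62 ± 0.11, edgeR adjusted p = 0.0245), and fell by 0.66 on the log2 scale in cKOt. Pfkfb3, a driver of endothelial glycolysis, fell from 91.1 and 100.1 to 51.7 and 56.6 CPM (-0.82 ± 0.15, edgeR adjusted p = 0.0277). Replicates of Ednrb and Pfkfb3 lay close. The immediate early genes Egr1 and Nr4a1 fell too, Egr1 from 84.7 and 45.3 to 26 and 17.7 CPM and Nr4a1 from 97.0 and 27.9 to 15.8 and 6.53 CPM. Ctrl ZT4 replicate 1 was high in both. Once 1 Ctrl library was left out, Ednrb and Pfkfb3 passed in 0 of the 4 fits and Egr1 and Nr4a1 in 1 of 4, with highest edgeR adjusted p values of 0.179, 0.224, 0.277 and 0.361.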

How the data were processed

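Frozen central cross-sections of kidneys from 8 mice, with cortex and medulla, were profiled by single-nucleus RNA-seq of sorted nuclei with 10x 3′ chemistry. Per the labels, the authors made the deposited UMI counts with bcl2fastq 2.20 and Cell Ranger 7.1.0 and name build GRCm39 there, whereas the study's methods name an mm10 reference. The use of introns and strand in counting was not given in the sources used here. Counts per gene were summed over nuclei with at least 500 genes, 800 UMIs and at most 2% mitochondrial UMIs in each library, and in each class of at least 20 nuclei per library. mRNAs with at least 5 counts in both libraries of a group were fitted by edgeR 4.0.16 (TMM, quasi-likelihood test, 4 groups in 1 model, Benjamini-Hochberg limit 0.05), with DESeq2 1.42.0, the tool of the study's methods, as the named alternative. Nuclei were clustered with leidenalg 0.10.2 (2000 variable genes, 50 components, resolution 1.5, 64 clusters) and named by markers, by a scoring rule set after clusters were seen. A doublet caller marked 5.347% of nuclei, which were kept in the sums over all nuclei, while 3880 nuclei of unnamed clusters, most of them rich in such doublets, entered no class. The genes named were those called by edgeR, the 12 of smallest p per direction passing DESeq2 without overlap, and in each list the called members, filled up to 3. Members and lists were chosen with earlier results of these data known. Replicates differed by more than counting noise (chi-square per degree of freedom 34.8 to 61.6). Scripts were tested on simulated data. Some genes of the lists are not reported by name here.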

Additional observations from a re-analysis of the deposited data

Results flagged for a closer look

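The change from ZT4 to ZT16 differed between Ctrl and cKOt, by edgeR's test of the difference, for 1 described mRNA over all nuclei and for 10 values within classes. Over all nuclei the Ctrl change of Rhobtb1 exceeded the cKOt change by 1.93 on the log2 scale. Within classes this difference was 1.93 in DCT-like, 1.62 in TAL-like, 1.47 in IC-like and 3.45 in podocyte-like nuclei. It was 3.13 in thin limb-like nuclei and 2.56 in the unnamed cluster 24. In all of these the mean level of Rhobtb1 was below that in PT-like nuclei, and the part of free RNA was not tested. PT-like nuclei, with the highest mean Ctrl level of Rhobtb1 (1285 CPM), were not among the classes that passed for this difference. For Lonrf3 it was 2.72 in DCT-like and 1.92 in TAL-like nuclei, and for Bhlhe40 it was 1.81 in DCT-like nuclei. In Immune-like nuclei it was 3.18 for Aqp2, a collecting duct gene, which stood at 42.0 and 31.8 CPM at ZT4 against 125 and 115 CPM at ZT16 in Ctrl and at 91.4 and 121 CPM against 26.1 and 53.2 CPM in cKOt. Over all nuclei Aqp2 had 73.5 and 77.9 against 104 and 227 CPM in Ctrl, and the part of free RNA in the Immune-like values was not tested. The Ctrl change of Aqp2 in Immune-like nuclei did not pass once any 1 Ctrl library was left out.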

How the results depend on the processing

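All 17 mRNAs kept their direction in each of the 16 alternatives over all nuclei. The 24 calls became 234 with DESeq2 (104 higher at ZT16, 130 at ZT4), 51 with no filter on low counts (23 and 28), 15 with the replicate block (6 higher at ZT4) and 8 to 16 without 1 Ctrl library (3 to 9 higher at ZT16, 4 to 7 at ZT4). The deviations of same-numbered libraries correlated at -0.228 between the times in Ctrl, 0.196 between the times in cKOt, and 0.416 and 0.422 between genotypes at ZT4 and ZT16. The labels tie no number to a shared litter, batch or day, so the numbers were not taken to pair the samples, and 7 of the 17 passed with the replicate block. Crossing the numbers, an alternative added after seeing the data, gave 53 calls (19 and 34). The difference between genotypes was called for 48 mRNAs by DESeq2 and 0 with the replicate block.

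DESeq2, which called 1.45% of all mRNAs, called 8 of 23 members of the endoplasmic reticulum list, 6 of 23 clock outputs, 5 of 22 glucose and 3 of 28 organic ion genes, 2 each (of 19 to 26) of the cholesterol, fatty acid synthesis, P450, amino acid and feeding lists, and 1 each (of 7 to 30) of the glucocorticoid, fatty acid oxidation, heat shock, immediate early, water, potassium and acid-base, cell cycle, injury, purine, hepatocyte and male-biased lists. Fatty acid synthesis had 0 calls with DESeq2 size factors and with the replicate block, as had amino acid transporters with the block. Without 1 library, list calls ran from 0 to 2 for amino acid transporters, 1 to 2 for clock outputs, 0 to 0 for fatty acid synthesis and 0 to 1 for water.

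Within classes DESeq2 called 249 mRNAs in PT-like, 40 in Stroma-like, 23 in connecting tubule and collecting duct-like, 9 in thin limb-like and 1 in podocyte-like nuclei, and 5, 6, 5, 9, 0 and 23 in clusters 17, 20, 21, 24, 27 and 7. The replicate block gave 274 in DCT-like, 98 in PT-like, 18 in podocyte-like and 0 in connecting tubule and collecting duct-like nuclei, and 0 and 8 in clusters 21 and 27. Without 1 library the calls ran from 59 to 97 in TAL-like, 53 to 62 in DCT-like, 9 to 15 in PT-like, 8 to 21 in Vasc-like, 6 to 42 in Stroma-like, 0 to 2 in connecting tubule and collecting duct-like, 5 to 10 in IC-like, 0 to 11 in Immune-like, 1 to 6 in podocyte-like, 0 to 25 in urothelium-like and 3 to 7 in thin limb-like nuclei. In clusters 17, 20, 21, 24, 27, 39 and 7 they ran from 1 to 10, 2 to 7, 0 to 2, 7 to 22, 0 to 6, 0 to 1 and 0 to 1. A fit without 1 library assumes that the lone sample varies like the other groups. The cause of these moves was not tested. Gene values kept their side of the threshold in 797 cases, lost it in 74, gained it in 73 and reversed in none. Depth limits low genes such as Lingo4 and Dnah5.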

Other observations

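The cell cycle gene Mcm6, a subunit of the replicative helicase, had 11.6 and 13.4 CPM at ZT4 against 7.69 and 6.46 CPM at ZT16 in Ctrl, a log2 change of -0.82, and a log2 change of 1.02 in cKOt. DESeq2 called the Ctrl change, and edgeR did not (edgeR adjusted p = 0.135). The potassium channel gene Kcnma1 had log2 changes of -0.87 in Ctrl and -0.97 in cKOt over all nuclei.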
